A study of Mus musculus with 6 samples.

Results

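*Ccdc53* and 9 genes of the endosomal retrieval machinery (*Vps26a*, *Vps26b*, *Vps29*, *Vps35*, *Snx1*, *Snx2*, *Snx5*, *Snx6* and *Snx27*) were followed in embryonic submandibular glands (eSMGs) treated with the CXCR4 antagonist AMD3100. These 10 genes were taken by symbol from the 23260 gene rows counted in each library. *Ccdc53* was included because it had the lowest edgeR p-value among the genes whose AMD3100 libraries all lay below the control libraries, so its own difference is described and not tested. That choice took the 5 genes at the head of the ranking, where *Dennd2a* was the last inside (edgeR unadjusted p = 0.00155) and *Ccl11* the first outside (0.00162). The other 9 genes were included for their function.

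The glands were dissected from ICR mouse embryos at E14 and kept ex vivo. Control tubes are labelled only as control, and AMD3100 tubes received 50 µM of the compound, a bicyclam that blocks CXCR4, the receptor of the chemokine CXCL12. Each group had 3 tubes of up to 10 pooled glands, collected 6 h after treatment, and each tube gave 1 library of 50 bp single reads from a 3′ mRNA kit. The methods describe independent experiments in triplicate for the study in general, but nothing in the labels says that these tubes came from separate litters, so p-values measure only the spread between these tubes, which may be technical. Whole glands were used, and a fall in the number of cells of a type and a fall in RNA per cell cannot be told apart.

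WASH is a complex of several subunits that activates the Arp2/3 complex on endosomes, where the branched actin it forms helps to sort receptors away from the lysosome. *Ccdc53*, now also called *Washc3*, encodes a small subunit of it. WASH is brought to endosomes by retromer, whose core holds VPS35, VPS29 and either VPS26A or VPS26B. Sorting nexins give the coat its membrane contacts. SNX1 or SNX2 pairs with SNX5 or SNX6 to form the membrane-bending SNX-BAR dimers, SNX27 binds cargo through its PDZ domain, and SNX3 is another adaptor that brings retromer to cargo.

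*Ccdc53* lies at chr10:88201097-88324139 on the forward strand of GRCm38.p6 (RefSeq), and *Vps26a*, the nearest to it in pattern among the other 9, lies on the same chromosome at chr10:62454843-62486805. The paralogue *Vps26b* lies at chr9:27004502-27030094. The 250 bases before the RefSeq start of these 3 genes are printed because they show how the gene with the largest difference, the retromer gene that did not overlap between groups and the paralogue of the latter start. They are read 5′ to 3′ along the gene, at chr10:88200847-88201096, chr10:62486806-62487055 and chr9:27030095-27030344, and capitals mark the GC box GGGCGG, the E-box CACGTG or the ETS core CCGGAA, searched on both strands and chosen with the sequences in view.

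Ccdc53: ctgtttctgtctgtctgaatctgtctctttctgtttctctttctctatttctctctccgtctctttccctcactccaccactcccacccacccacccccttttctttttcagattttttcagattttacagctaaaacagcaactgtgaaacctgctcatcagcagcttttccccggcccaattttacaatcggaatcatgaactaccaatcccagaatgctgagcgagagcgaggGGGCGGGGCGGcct

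Vps26a: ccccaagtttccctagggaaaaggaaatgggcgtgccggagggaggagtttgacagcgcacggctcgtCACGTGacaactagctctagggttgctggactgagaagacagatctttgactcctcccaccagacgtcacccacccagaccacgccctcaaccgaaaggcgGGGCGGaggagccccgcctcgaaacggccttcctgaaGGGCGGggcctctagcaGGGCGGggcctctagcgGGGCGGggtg

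Vps26b: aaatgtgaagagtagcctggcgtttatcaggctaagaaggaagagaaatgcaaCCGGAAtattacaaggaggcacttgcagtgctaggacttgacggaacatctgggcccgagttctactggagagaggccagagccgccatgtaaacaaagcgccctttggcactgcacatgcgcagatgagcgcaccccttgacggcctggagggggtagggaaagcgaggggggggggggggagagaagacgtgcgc

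The *Ccdc53* window held 2 GC boxes that overlap each other, directly before the start, and had 7 CpG sites at a GC content of 48.4%. The *Vps26a* window held 4 GC boxes and 1 E-box, with 18 CpG sites and a GC content of 64.4%, and a second start of this gene is annotated. The *Vps26b* window held 1 ETS core, with 12 CpG sites and a GC content of 57.2%. Of 32851 RefSeq windows of the same length, 32.7% held a GC box, 12% an ETS core and 6.02% an E-box, and the median window had 6 CpG sites and a GC content of 52.4%. These matches describe the letters of the windows and were not set against binding data.

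The libraries held 9051595 to 14393031 counts each. Values are CPM, counts scaled to a common library total after TMM normalization by edgeR, and 3 counts, the floor used here, stood at 0.173 to 0.368 CPM on this scale. Both libraries numbered 3 stood apart from the other 4. Control and AMD3100 replicate 3 correlated at 0.954 across genes in log2 CPM, and each of the other pairs of libraries lay between 0.813 and 0.902. Both replicate 3 libraries were above the other 4 libraries for 23.1% of the 13610 genes tested and below them for 21.1%. The summed level of 5 skeletal muscle markers (*Myog*, *Myh3*, *Actc1*, *Acta1* and *Ttn*) was 1017 and 1370 CPM in the replicate 3 libraries and 134 to 278 CPM in the other 4, and that of 7 mesenchymal markers was 1703 and 1476 CPM against 3820 to 3920 CPM.

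All 10 genes were detected in every library and passed the filter on low counts. The order of their mean levels over the 6 libraries was *Snx5* (219 CPM), *Snx1* (107), *Snx6* (94.8), *Vps26b* (89.9), *Vps35* (74.8), *Vps29* (49.8), *Snx27* (44.9), *Snx2* (16.8), *Vps26a* (14.9) and *Ccdc53* (10.3). The kit reads one end of each transcript, so counts were not divided by length, and a comparison between genes also depends on how well each 3′ end is annotated. The ranges of all neighbours in this order overlapped. *Snx5* exceeded *Snx1*, *Vps35* exceeded *Vps29* and *Snx27* exceeded *Snx2* in all 6 libraries, whereas *Snx1* exceeded *Snx6* in 2 and *Snx6* exceeded *Vps26b* in 3.

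**Figure D1:**
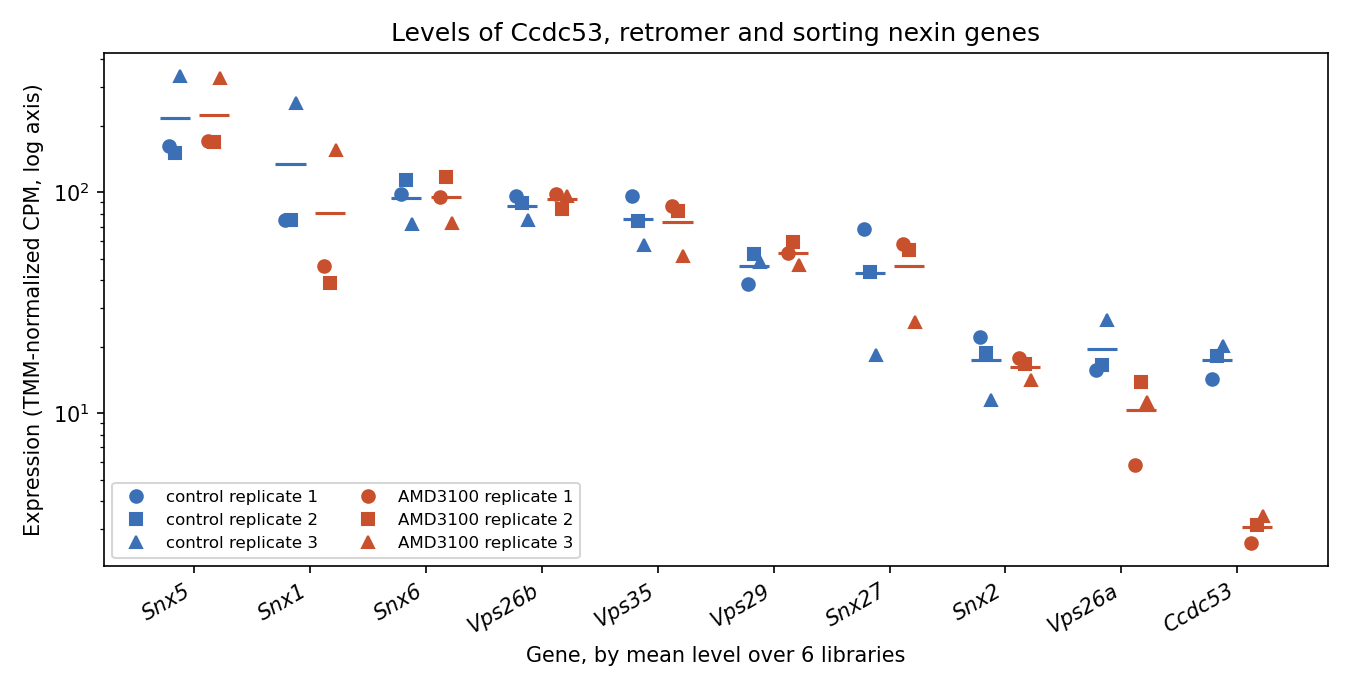
Level of each of the 10 genes (horizontal axis, ordered by mean) in TMM-normalized CPM on a log axis, with 1 point per library, the marker shape giving the replicate number, and a bar at each group mean (n = 3 tubes per group). For *Ccdc53* and *Vps26a* all AMD3100 points lie below all control points, and for the other 8 genes the groups overlap.

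*Ccdc53* had the largest difference of the 10 genes, and it was chosen for that difference. It was counted 163, 248 and 203 times in control replicates 1, 2 and 3 and 45, 34 and 28 times in the AMD3100 replicates. This corresponded to 14.3 CPM (95% exact Poisson interval 12.2 to 16.6), 18.1 CPM (15.9 to 20.5) and 20.2 CPM (17.6 to 23.2) in control, and to 2.59 CPM (1.89 to 3.47), 3.13 CPM (2.17 to 4.38) and 3.44 CPM (2.28 to 4.97) in AMD3100-treated eSMGs. These intervals cover counting error only. The level in AMD3100-treated eSMGs was 5.74-fold lower by edgeR's estimate. The log2 fold change was -2.65 to -2.40 with any 1 library left out and -2.50 with replicates 1 and 2 only, and as the gene was chosen for groups that do not overlap, its direction could not turn.

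The 4 other WASH subunits did not pass the thresholds used here. *Wash1*, which encodes the subunit that activates Arp2/3, had 34.6, 24.8 and 47.5 CPM in control and 41, 38.1 and 56.4 CPM in AMD3100-treated eSMGs. *Fam21*, whose product has the long tail that binds retromer, had 29.9, 37.7 and 29.5 CPM in control and 30.8, 24.1 and 21.6 CPM with AMD3100. The groups overlapped for both genes. *A230046K03Rik* (*Washc4*, encoding SWIP) had 19.6, 22.4 and 21.7 CPM in control and 27, 21.9 and 24.8 CPM with AMD3100. *E430025E21Rik* (*Washc5*, encoding strumpellin) had 21.2, 30.9 and 32.4 CPM in control and 33.6, 34.2 and 38.9 CPM with AMD3100. All AMD3100 values of *E430025E21Rik* lay above all control values, as did those of 3.28% of the genes tested.

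Of these 4 subunits, 3 were higher and 1 lower in AMD3100-treated eSMGs, with a median log2 fold change of 0.27, beside 0.02 over all genes tested. None passed a fold change of 1.5 with an unadjusted p under 0.05, and the edgeR adjusted p was 1.0 for each. The estimates were 0.34 for *Wash1* (95% interval -0.43 to 1.11), -0.34 for *Fam21* (-1.04 to 0.35), 0.21 for *A230046K03Rik* (-0.47 to 0.89) and 0.34 for *E430025E21Rik* (-0.35 to 1.03). The estimate for *Ccdc53* was -2.52. For every 100 CPM summed over the 4 subunits there were 13.5, 15.6 and 15.4 CPM of *Ccdc53* in control and 1.96, 2.65 and 2.43 CPM in AMD3100-treated eSMGs.

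The count of *Ccdc53* was also read beside its neighbours on chromosome 10, since RefSeq extends the gene over 123043 bases, so that its end overlaps *Dram1*, a p53-induced autophagy gene on the opposite strand, by 1339 bases. RefSeq also places the pseudogenes *Gm8415* (1221 bases) and *Gm17980* (2490 bases) within this span. In GENCODE vM1 on the older NCBIM37 assembly *Ccdc53* spans 45056 bases in 3 transcripts and stops 76651 bases short of *Dram1*. Whether the authors' counting used strand, and which annotation it used, are not given in the sources used here, so reads of *Ccdc53* and *Dram1* in that overlap cannot be told apart. *Dram1* had 6.57, 1.75 and 1.7 CPM in control and 1.44, 0.553 and 1.11 CPM in AMD3100-treated eSMGs, lower levels than those of *Ccdc53* in each library. Its groups did not overlap, with a log2 fold change of -1.68 (95% interval -4.12 to 0.77, edgeR adjusted p = 1.0).

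*Nup37*, a nuclear pore gene that ends 22701 bases before *Ccdc53*, had 13.6, 12.1 and 14.8 CPM in control and 7.2, 11.9 and 7.49 CPM with AMD3100, again without overlap, and its log2 fold change was -0.60 (95% interval -1.52 to 0.31). *Parpbp*, a regulator of homologous recombination on the far side of *Nup37*, had 9.11, 7.58 and 1.6 CPM in control and 2.42, 2.95 and 1.6 CPM with AMD3100, and its groups overlapped. Its log2 fold change was -1.39 (95% interval -3.23 to 0.46), and it passed the thresholds without control replicate 3, at -1.83. *Gnptab*, which encodes the enzyme subunits that start the mannose 6-phosphate tag on lysosomal enzymes and lies 54994 bases after *Ccdc53*, had a log2 fold change of 0.02 (95% interval -1.04 to 1.09). Thus 2 of the 4 neighbours lay wholly below control, beside 4.17% of the genes tested, and none of the 4 passed the thresholds with all 6 libraries. Both were apart by little, at 12.1 against 11.9 CPM for *Nup37* and 1.7 against 1.44 CPM for *Dram1*. *Dram1* also had low counts, namely 75, 24 and 17 in control and 25, 6 and 9 with AMD3100.

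Of the 4 retromer core genes, *Vps26a* was the one whose groups did not overlap. It had 15.7, 16.6 and 26.4 CPM in control (19.6 ± 5.96, SD, n = 3) and 5.82, 13.8 and 11.2 CPM in AMD3100-treated eSMGs (10.3 ± 4.08, SD, n = 3). All 3 AMD3100 libraries were below the lowest control, by little for AMD3100 replicate 2. The log2 fold change was -0.93 (95% interval -1.94 to 0.08), with an edgeR adjusted p of 1.0. With replicate number as a block in the same model the estimate was -0.98 and passed a fold change of 1.5 with an unadjusted p under 0.05 (edgeR adjusted p = 0.703). It also passed without AMD3100 replicate 2, at -1.20, and it was -0.73 with replicates 1 and 2 only, which did not pass.

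*Vps26b*, the other form of the same subunit, had 96, 89.6 and 75.3 CPM in control and 98.3, 83.8 and 96.6 CPM in AMD3100-treated eSMGs. *Vps29*, which encodes the subunit that contacts retromer regulators, had 38.6, 52.4 and 48.6 CPM in control and 52.9, 59.3 and 46.9 CPM with AMD3100. *Vps35*, which encodes the scaffold of the core, had 96.3, 73.9 and 57.9 CPM in control and 87.1, 82.2 and 51.6 CPM with AMD3100. The groups overlapped for all 3 genes. The log2 fold changes were 0.10 for *Vps26b* (95% interval -0.51 to 0.70), 0.19 for *Vps29* (-0.44 to 0.82) and -0.05 for *Vps35* (-0.79 to 0.70), and each of these intervals still holds a 1.5-fold change in at least one direction. *Vps26b* and *Vps29* overlap *Thyn1* and *Fam216a* on the opposite strand, by 2835 and 401 bases, and their reads there cannot be told apart either. The same holds for *Fam21*, which overlaps the long non-coding RNA gene *Gm52873* on the same strand by 2637 bases. *Snx5* spans the small nucleolar RNA genes *Gm26165* and *Snord17*.

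*Vps26a* made up 14%, 15.6% and 26% of the counts of the 2 VPS26 genes in control and 5.59%, 14.2% and 10.4% in AMD3100-treated eSMGs. The mean share was 18.6% ± 6.48 (SD, n = 3) in control and 10% ± 4.3 with AMD3100, with a two-sided exact permutation p of 0.2 (0.6 adjusted over the 3 paralogue pairs compared), where 3 tubes against 3 cannot go below 0.1. The groups overlapped, since AMD3100 replicate 2 lay above control replicate 1. In each same-numbered pair of libraries the share was lower with AMD3100, and the permutation did not use the replicate number. *Vps26b* thus took most of the counts of the pair in every library. The sum of the 4 core genes was 229 ± 19.4 CPM in control and 230 ± 20.5 CPM in AMD3100-treated eSMGs (SD, n = 3).

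Among the SNX-BAR genes *Snx1* had the largest spread relative to its mean (coefficient of variation 77% over the 6 libraries, next *Snx5* at 39.8%). It had 74.8, 74.7 and 253 CPM in control and 46.2, 39 and 156 CPM in AMD3100-treated eSMGs, so that each AMD3100 library was below the control library of the same number while the groups overlapped. The log2 fold change was -0.74 (95% interval -2.23 to 0.74), with an edgeR adjusted p of 1.0. With replicate number as a block it was -0.78 and passed a fold change of 1.5 with an unadjusted p under 0.05 (edgeR adjusted p = 0.225), and with replicates 1 and 2 only it was -0.81 and passed as well (edgeR adjusted p = 0.746). The estimate rested on which replicate 3 library was present, being 0.12 without control replicate 3 and -1.67, past the thresholds, without AMD3100 replicate 3. *Snx1* was high in the same 2 libraries in which the skeletal muscle markers were high, but the pattern was not particular to muscle. Macrophage markers summed to 264 and 210 CPM in those libraries against 81.1 to 100 CPM in the others. Neuronal markers summed to 591 and 973 CPM against 356 to 552 CPM, and 23.1% of the genes tested were higher in both. The part of muscle or of any other tissue in the level of *Snx1* was not tested.

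*Snx2*, which can take the place of *Snx1* in the dimer, had 22.1, 18.7 and 11.5 CPM in control and 17.8, 16.7 and 14.1 CPM in AMD3100-treated eSMGs. *Snx5* had 162, 151 and 335 CPM in control and 171, 169 and 328 CPM with AMD3100. *Snx6* had 98, 114 and 71.6 CPM in control and 95.6, 117 and 72.7 CPM with AMD3100. All 3 genes differed more between replicate 3 and the other libraries than between the groups, and the log2 fold changes with AMD3100 were -0.10 for *Snx2* (95% interval -0.95 to 0.74), 0.04 for *Snx5* (-0.91 to 1.0) and 0.01 for *Snx6* (-0.70 to 0.72).

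*Snx27*, the cargo adaptor with a PDZ domain, had 67.9, 43.6 and 18.4 CPM in control and 58.6, 55.1 and 26 CPM in AMD3100-treated eSMGs. Its groups overlapped, and the log2 fold change was 0.11 (95% interval -1.02 to 1.23, edgeR adjusted p = 1.0). *Snx1* accounted for 77.2%, 80% and 95.7% of the counts of *Snx1* and *Snx2* in control and 72.2%, 70% and 91.7% with AMD3100 (two-sided exact permutation p = 0.5, adjusted 0.75). *Snx5* accounted for 62.2%, 57% and 82.4% of the counts of *Snx5* and *Snx6* in control and 64.2%, 59.1% and 81.8% with AMD3100 (two-sided exact permutation p = 0.8, adjusted 0.8). Within both gene pairs the first gene took the larger share in replicate 3 of either group. The share of *Snx1* was lower with AMD3100 in each same-numbered pair of libraries. That of *Snx5* was higher with AMD3100 in replicates 1 and 2 and lower in replicate 3. These permutations did not use the replicate number either.

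**Figure D2:**
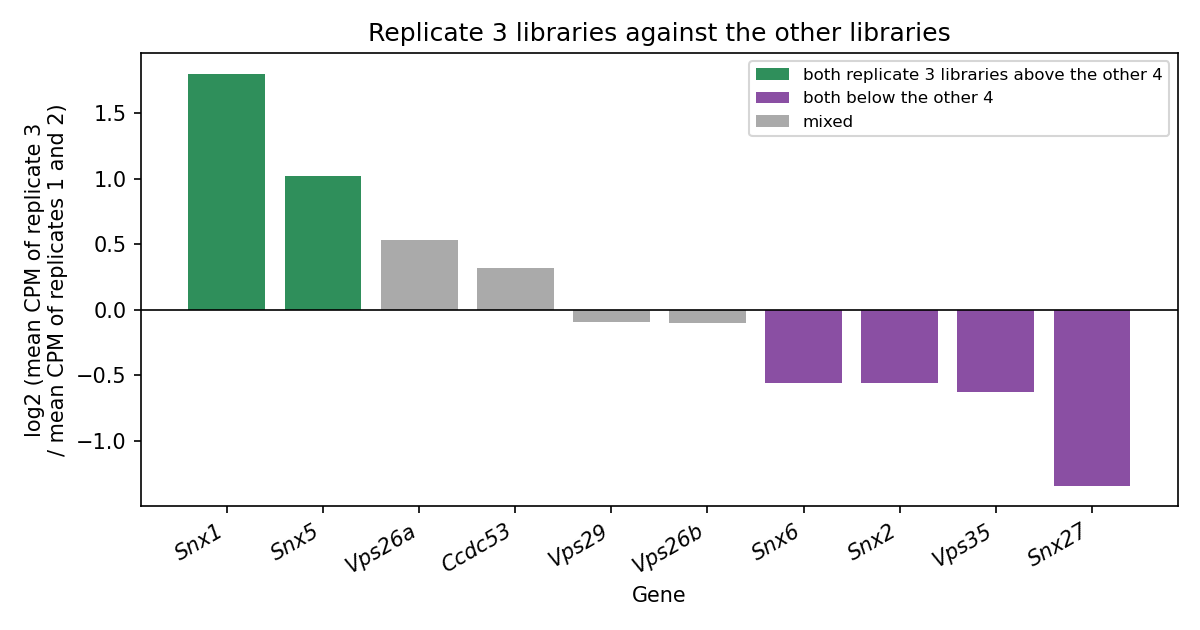
Log2 ratio of the mean CPM in the 2 replicate 3 libraries over that in the other 4 libraries for each of the 10 genes, with colour showing whether both replicate 3 libraries lay above the other 4, below them or neither. *Snx1* (1.80) and *Snx5* (1.02) were above, *Snx6* (-0.56), *Snx2* (-0.56), *Vps35* (-0.63) and *Snx27* (-1.34) were below, and *Ccdc53* (0.32) was mixed.

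Of the 10 genes, 5 were higher and 5 lower in AMD3100-treated eSMGs, with a median log2 fold change of -0.02, and 47.8% of all genes tested were lower. *Ccdc53* was the only one of the 10 past a fold change of 1.5 with an unadjusted p under 0.05, which it was chosen for, and 1.68% of the genes tested passed. Of the 9 genes chosen by function, 0 passed. Among these 9, 1 (*Vps26a*) had AMD3100 libraries wholly below control, as did 4.17% of the genes tested. With the replicate block, *Vps26a* and *Snx1* also passed, 2 of the 9, beside 4.39% of all genes. With replicates 1 and 2 only, *Snx1* passed, 1 of the 9, beside 4.39% of the genes tested in that fit. By edgeR's adjusted p, 0% of the genes tested were under 0.05, beside 228 by unadjusted p, 5 by DESeq2's adjusted p and 3 by edgeR's adjusted p with the replicate block.

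**Figure D3:**
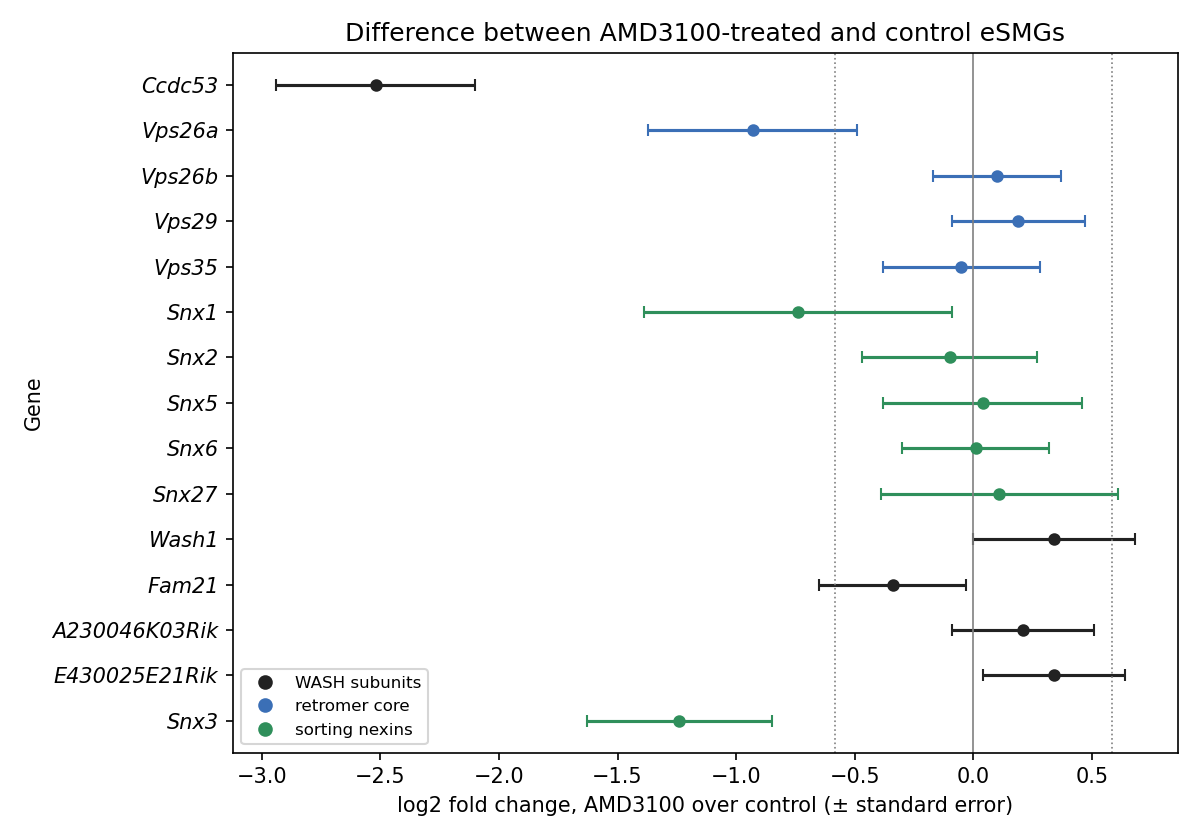
Log2 fold change of AMD3100-treated over control eSMGs by edgeR (horizontal axis, point ± standard error, n = 3 tubes per group) for the 10 genes, the 4 other WASH subunits and *Snx3*, coloured by complex, with dotted lines at a fold change of 1.5. *Ccdc53* lies at -2.52 and *Snx3* at -1.24, and the other 13 genes lie between -0.93 and 0.34.

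Genes of the same pathway outside the 10 were counted from lists compiled for the purpose. Of 9 further retromer partners (adaptors, regulators and Rab7), 7 were higher and 2 lower, with a median log2 fold change of 0.05, beside 0.02 over all genes, and 1 of the 9 passed the thresholds, beside 1.68% of all genes. This was *Snx3*, the adaptor that links retromer to cargo such as the Wnt carrier WLS. It had 56, 81 and 55.2 CPM in control (64.1 ± 14.6, SD, n = 3) and 26.9, 39.2 and 15.4 CPM in AMD3100-treated eSMGs (27.1 ± 11.9, SD, n = 3). The groups did not overlap, as for the 4.17% of genes wholly below control, and each AMD3100 library was below the control library of the same number. The log2 fold change was -1.24 (95% interval -2.12 to -0.36), with an edgeR adjusted p of 1.0 over all genes, -1.30 with the replicate block (adjusted p = 0.207) and -1.06 with replicates 1 and 2 only (adjusted p = 0.746). It lay between -1.59 and -0.97 with any 1 library left out, and passed the thresholds in all 6 of those fits.

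*Fkbp15*, which binds the WASH complex through FAM21, had 2.63, 10.9 and 8.88 CPM in control and 12.6, 20 and 18.3 CPM in AMD3100-treated eSMGs. All AMD3100 values were above all control values, and the log2 fold change was 1.18 (95% interval -0.06 to 2.43, edgeR adjusted p = 1.0). It passed the thresholds with the replicate block, at 1.37 (adjusted p = 0.553). *Rab7*, the late endosome GTPase that helps to recruit retromer, had a log2 fold change of 0.38 (95% interval -0.29 to 1.05). *Wls*, a cargo of SNX3 and retromer, had a log2 fold change of 0.35 and did not pass.

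**Figure D4:**
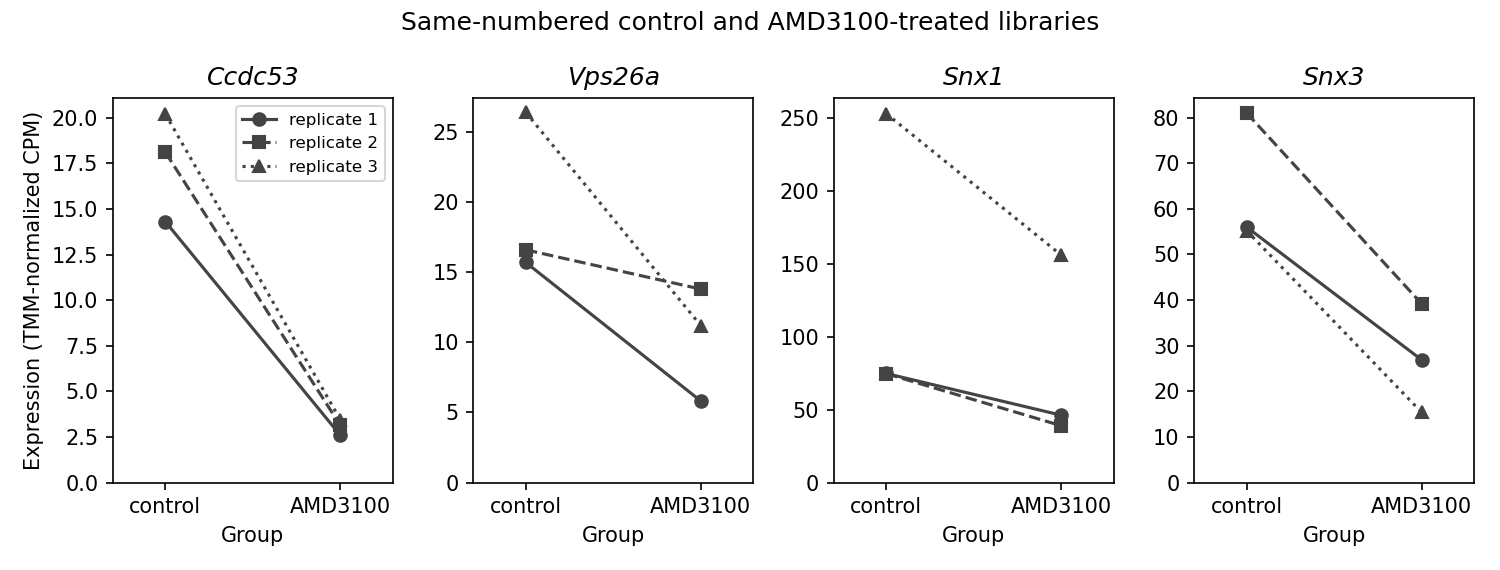
TMM-normalized CPM of *Ccdc53*, *Vps26a*, *Snx1* and *Snx3* in control and AMD3100-treated eSMGs, with a line joining the libraries of the same replicate number. Each was lower in all 3 pairs, whereas the other 7 of the 10 genes were lower in 1 or 2 pairs. *Snx3* is from outside the 10 and is shown because it passed the thresholds. Other listed genes, among them *Capzb*, *M6pr* and *Igf2r*, were also lower in all 3 pairs and are not shown. For *Snx1* the replicate 3 line lies above the other 2 throughout.

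The Commander complex retrieves cargo from the same endosomes with the help of WASH. The list for it, which also held the sorting nexin gene *Snx17*, had 16 genes tested. Of these 9 were higher, 7 lower and 0 past the thresholds, with a median log2 fold change of 0.02. *Commd1* had the lowest p of these, with 13.8, 17 and 74.9 CPM in control and 6.91, 16 and 14.5 CPM in AMD3100-treated eSMGs. Control replicate 3 was far above the other libraries, and the log2 fold change of -1.50 was -0.31 without it. Over the fits with 1 library left out it lay between -1.89 and -0.31, and it passed the thresholds in 2 of them. *Commd4* (0.68) and *Commd7* (-0.68) followed, and each passed in 1 such fit. With the replicate block all 3 passed, at -1.15, 0.69 and -0.66 (edgeR adjusted p = 0.703, 0.73 and 0.481), which is 3 of the 16 genes, beside 4.39% of all genes. *Commd4* also passed with replicates 1 and 2 only, at 0.96 (edgeR adjusted p = 0.809).

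The 12 genes of the Arp2/3 complex and of the capping protein that binds WASH included 3 higher, 9 lower and 0 past the thresholds, with a median log2 fold change of -0.06. *Capzb*, the capping protein's beta subunit, had 236, 281 and 755 CPM in control and 164, 167 and 353 CPM in AMD3100-treated eSMGs. Like *Snx1*, it was highest in the replicate 3 library of each group and lower with AMD3100 in each same-numbered pair. Its log2 fold change was -0.90 (95% interval -2.06 to 0.27), between -0.17 without control replicate 3 and -1.37 without AMD3100 replicate 3, and it passed with the replicate block at -0.79 (edgeR adjusted p = 0.207) and with replicates 1 and 2 only at -0.65 (edgeR adjusted p = 0.719). *Arpc1a* (-0.67) and *Arpc4* (0.23), both Arp2/3 subunits, came next by p. The direction of *Arpc1a* turned with 1 library left out, where its value lay between -1.04 and 0.15.

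Of 13 genes of other Arp2/3 activators (the WAVE complex and relatives of WASP), 8 were higher, 5 lower and 0 past the thresholds (median log2 fold change 0.25), and *Cyfip2* (0.37), *Nckap1* (0.27) and *Wasf1* (0.30) had the lowest p. Among cargo genes 7 were tested, with 3 higher, 4 lower and 0 past (median -0.01). *M6pr*, the small mannose 6-phosphate receptor, had 14.8, 22.8 and 12.8 CPM in control and 13.7, 5.9 and 4.67 CPM in AMD3100-treated eSMGs, with overlapping groups and a log2 fold change of -1.04 (95% interval -2.21 to 0.12), and it passed with the replicate block at -1.16 (edgeR adjusted p = 0.703). *Sort1*, which encodes sortilin, had 0.63 and did not pass. Of 22 other sorting nexins 20 were tested, 13 higher, 7 lower and 0 past (median 0.05), with *Snx22* (-0.56), *Snx32* (1.02) and *Snx10* (0.51) lowest in p, and *Snx22* passed with replicates 1 and 2 only, at -0.59. *Snx32* lay between 0.55 and 1.95 with any 1 library left out.

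The genes whose log2 CPM followed *Ccdc53* most closely over the 6 libraries, among 10240 genes of at least 5 CPM, were *Usp42* (Pearson r = 0.994), *Txnip* (0.985), *Polr2d* (0.984), *Smim14* (0.983) and *Tob2* (0.980). *Usp42*, a ubiquitin protease gene, had 56, 60.4 and 59.9 CPM in control and 39.6, 38.6 and 40.9 CPM in AMD3100-treated eSMGs, a smaller step than that of *Ccdc53*. The points of these correlations fall into the 2 groups, so r describes mainly the step between them. AMD3100 values lay wholly below control for each of these 5 genes, which a gene chosen for that step would draw in. *Txnip* and *Smim14* held ranks 2 and 3 in the same ranking from which *Ccdc53* was chosen. Of the other genes described, *Vps26a* followed *Ccdc53* at 0.811, rank 218, *Fam21* at 0.626 and *Snx1* at 0.504, while *A230046K03Rik* (-0.684), *E430025E21Rik* (-0.551), *Vps26b* (-0.455), *Vps29* (-0.451) and *Wash1* (-0.441) ran opposite. The other 5 genes lay between -0.282 and 0.0338.

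Markers of 7 cell types were read beside the label of the tissue. They are general markers of cell types, so they cannot tell this gland from another organ. The gene with the highest mean over the 6 libraries is named for each list. Epithelial markers (8 genes, *Cdh1*) summed to 1171, 1191 and 585 CPM in control and 1271, 1307 and 961 CPM in AMD3100-treated eSMGs. Mesenchymal markers (7 genes, *Col3a1*) summed to 3920, 3909 and 1703 CPM in control and 3833, 3820 and 1476 CPM with AMD3100. Neuronal markers (4 genes, *Prph*) lay between 356 and 973 CPM, macrophage markers (5 genes, *C1qa*) between 81.1 and 264 CPM and endothelial markers (4 genes, *Kdr*) between 15.5 and 44.4 CPM, and erythroid markers (5 genes, *Hba-a1*) between 4776 and 13709 CPM. The summed levels of the groups overlapped for all 7 types, 0 of the 38 markers were at 0 in every library, and 0 passed the thresholds, with *Twist1* (log2 fold change -0.87), *Cdh1* (0.55) and *Kdr* (0.77) lowest in p. *Kdr* lay between 0.13 and 1.01 with any 1 library left out. Of the 8 epithelial markers 5 were higher and 3 lower with AMD3100 (median log2 fold change 0.12), and of the 7 mesenchymal markers 1 was higher and 6 lower (median -0.14). Of the 4 endothelial markers 1 (*Kdr*) was higher and 3 lower (median -0.56). The 5 erythroid markers were all lower (median -0.34). Neuronal markers were 2 higher and 2 lower (median 0.06), and macrophage markers 3 higher and 2 lower (median 0.02). *Cdh1* had 337, 302 and 211 CPM in control and 344, 394 and 507 CPM with AMD3100, all above control, and the mesenchymal *Osr1* had 184, 172 and 170 CPM in control and 148, 140 and 161 CPM with AMD3100, all below control. *Twist1*, a mesenchymal transcription factor gene, passed with the replicate block, at -0.97 (edgeR adjusted p = 0.703). Of the 5 muscle markers 4 were higher and 1 (*Myog*) lower with AMD3100, with a median log2 fold change of 0.44. *Myog*, which had the highest mean through its replicate 3 levels while *Actc1* exceeded it in replicates 1 and 2, had 41.1, 40 and 521 CPM in control and 13.9, 9.95 and 485 CPM with AMD3100, lower with AMD3100 in each same-numbered pair, and it passed with the replicate block, at -1.16 (edgeR adjusted p = 0.468). The other 4 muscle markers were lower in 1 or 2 of the 3 pairs, and none of them passed with the block. With replicates 1 and 2 only, 4 of the 5 muscle markers passed the thresholds as lower, and so did 2 of the 5 erythroid markers, beside 2.48% of all genes tested in that fit. Whether muscle or any other tissue had a part in the values of *Snx1* and *Capzb* was not tested.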

How the data were processed

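For each of the 6 libraries the authors deposited a file of raw counts per gene symbol, not normalized. The submitters' processing notes name Bowtie2, edgeR and the mm10 build, and the counting program, annotation and use of strand are not given in the sources used here. Of 23282 lines, 44 repeated a symbol and 22 identical repeats were dropped. The other repeats were kept as separate rows. Rn45s, the ribosomal RNA precursor, took 16.2% to 32.5% of the counts.

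Counts were compared with edgeR 4.0.16 in R 4.3.3 (filterByExpr, TMM, glmQLFit, glmQLFTest with condition as the only term, Benjamini-Hochberg adjustment over 13610 genes). Intervals are 95%. The thresholds, a fold change over 1.5 and an unadjusted p under 0.05, are those given in the text of the study, which also states a stricter fold change in a legend. Its methods name quantile normalization with edgeR. Alternatives were DESeq2 1.42.0, limma-voom 3.58.1 after quantile normalization, 2 other filters, Rn45s left out, a replicate block, each library left out, and, chosen after seeing the data, replicates 1 and 2 only. The groups share replicate numbers in the labels, and the pairing was checked by correlating deviations from the group means across genes. Same-numbered libraries correlated at 0.185, 0.171 and 0.584, although replicates 1 and 2 also correlated when crossed (0.198 and 0.146), so the number is used as a block beside each result whose call it changes. The fits were tested on simulated data.

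The genes and lists were chosen with earlier results of these data known. Genes were named by rule, namely the 10 genes, the other WASH subunits, the 2 nearest annotated genes on each side of Ccdc53, in each list those past the thresholds and the 3 with the lowest p, and the 5 with the highest correlation with Ccdc53 (log2 CPM, prior count 2). The lists were other WASH subunits, retromer partners, Commander, Arp2/3 and capping protein, other Arp2/3 activators, cargo, other sorting nexins and cell type markers. Positions and upstream windows are from RefSeq on GRCm38.p6. Reads of 50 bases were taken every 25 bases from the last 300 bases of GENCODE vM1 transcripts. They were aligned to NCBIM37 with minimap2 2.31-r1302. Of the reads that aligned, 0% were shared with another place for each of the 10 genes. Some did not align for Ccdc53 (31 of 33 aligned), Snx1 (20 of 22) and Snx27 (52 of 55). These ends leave out the RefSeq end of Ccdc53 that overlaps Dram1. Snx3 was not examined, and Wash1 and Fam21 have no value.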

Additional observations from a re-analysis of the deposited data

How the results depend on the processing

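The 228 genes past the thresholds became 479 with DESeq2, 598 with the replicate block and 613 with replicates 1 and 2 only, and 163 to 547 with 1 library left out, the highest without control replicate 3 and 451 without AMD3100 replicate 3. Genes with an adjusted p under 0.05 numbered 0 in edgeR, 5 with DESeq2 and 3 with the replicate block. Members past the thresholds numbered 1, or 3 with the replicate block, 2 with replicates 1 and 2 only, and 1 to 2 with 1 library left out. The replicate block changed the calls of *Vps26a* and *Snx1* and of no other member.

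*Vps26a* and *Vps29* kept their direction under all 13 alternatives, as did *Ccdc53*, whose choice fixed it. Directions turned for *Snx1* (-1.67 to 0.12 with 1 library left out), *Vps35* (-0.21 to 0.15), *Snx2* (-0.33 to 0.10), *Snx5* (-0.36 to 0.52), *Snx6* (-0.16 to 0.16) and *Snx27* (-0.26 to 0.58). *Vps26b* was -0.03 with replicates 1 and 2 only. *Snx6* was -0.00 both then and with limma-voom. The causes were not tested. The counts of the other alternatives stayed within 1.5 times.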

Other observations

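*Ccdc53*, *Vps26a*, *Snx3* and *A230046K03Rik* all lie on chromosome 10. Of 664 tested genes placed there, 50% were lower in AMD3100-treated eSMGs and 2.26% passed the thresholds as lower, beside 47.7% and 1.23% of 12905 genes on other chromosomes, and the difference was not tested. AMD3100 values lay wholly below control for 6.33% of the genes on chromosome 10 and for 4.06% of the others, and the median log2 fold changes were -0.00 and 0.02.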
